A study of Mus musculus with 9 samples.

Results

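The genes described here are the 7 cyclin-dependent kinase inhibitor genes of the CIP/KIP and INK4 families, Cdkn1c, Cdkn1a, Cdkn1b, Cdkn2a, Cdkn2b, Cdkn2c and Cdkn2d, together with Gdf15, a secreted stress factor. They were taken by symbol, each symbol stood on a single entry, and they make up 8 of the 37801 genes used. The inhibitors belong here by family, but the set was chosen by the FPKM of Cdkn1c and Gdf15, which stood out in Tyr-NrasQ61K against wild-type nodes in an earlier look at these libraries. For that contrast the values of all 8 genes are therefore given as a description, with no test.

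RNA-seq was performed on 9 libraries in 3 groups, with 3 libraries per group. The group labelled MHCII-KO carried the Tyr-NrasQ61K transgene, was Cre-positive and was labelled as lacking MHC class II, with strain FVB/NJ (Cross). The Tyr-NrasQ61K group carried the same transgene, was Cre-negative and had MHC class II, also with strain FVB/NJ (Cross). The wild-type (WT) group had neither change, with strain FVB/NJ, so the strain label and the oncogene cannot be told apart against WT. The transgene is driven by the tyrosinase promoter, which is active in melanocytes and so limits where the oncogene is expressed. The sources used here name neither the Cre driver of the MHCII-KO mice nor the ages of the mice. The labels name nevus melanocytes as the source, whereas the study describes RNA from lymph nodes. The paper's methods describe albino wild-type controls as littermates without the transgene, although the strain label of WT differs from that of the other groups. The labels do not say that each library came from a separate animal, so that p-values measure the spread between these libraries.

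The levels are those of whole lymph nodes. Ighm, the heavy chain of IgM, lay between 363 and 2194 FPKM in the 9 libraries, and the melanocyte genes Dct and Tyrp1 stayed at or below 5.81 and 0.992 FPKM. FPKM are fragment counts scaled to the length of the transcript and to the size of the library, and so a level per length. H2-Ab1, the beta chain of the MHC class II molecule I-A, was at 108 to 271 FPKM in the libraries labelled MHCII-KO, 149 to 276 in Tyr-NrasQ61K and 101 to 183 in WT, so its level in whole nodes does not check the MHCII-KO label. Nras was at 7.48 to 11.1, 5.55 to 14.4 and 10.3 to 14.7 FPKM in the MHCII-KO, Tyr-NrasQ61K and WT libraries. Depth was estimated from the most frequent low FPKM of single-exon genes, taken as 1 fragment. It came to about 6150000 fragments in Tyr-NrasQ61K 2, 6990000 in MHCII-KO 2 and 8110000 to 13500000 in 6 other libraries, and was not recovered in Tyr-NrasQ61K 3. Tyr-NrasQ61K 2 and MHCII-KO 2 also stood apart from the rest on the first principal component, which held 32.1% of the variance, and Tyr-NrasQ61K 3 on the second, which held 14.6%.

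Cyclin-dependent kinases drive the cell cycle by phosphorylating the retinoblastoma protein, which then releases E2F transcription factors. The CIP/KIP proteins p21, p27 and p57, encoded by Cdkn1a, Cdkn1b and Cdkn1c, bind cyclin and kinase together and act above all on CDK2 complexes. The INK4 proteins p16, p15, p18 and p19, encoded by Cdkn2a, Cdkn2b, Cdkn2c and Cdkn2d, bind CDK4 and CDK6 and keep D-type cyclins away from them. Cdkn2a and Cdkn1a are the inhibitors most often used as markers of oncogene-induced senescence. Gdf15, a distant member of the TGF-beta family, is induced by p53 and by the integrated stress response and is itself often counted among senescence-associated secreted factors.

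Cdkn1c and Gdf15 were the 2 of the 8 genes with all 6 NrasQ61K libraries above every WT library, as for 4.52% of all genes tested. Cdkn1c averaged 24.2 ± 12.9 FPKM in MHCII-KO and 27.9 ± 5.22 in Tyr-NrasQ61K nodes, against 1.17 ± 0.449 in WT nodes (SD, n = 3 each). Gdf15 averaged 3.78 ± 1.11, 3.78 ± 0.314 and 0.452 ± 0.212 FPKM in the MHCII-KO, Tyr-NrasQ61K and WT groups. Cdkn2c lay below every WT library in all 6 NrasQ61K libraries, as for 8.44% of all genes tested, but was not called. The inhibitors that are the usual markers of senescence, Cdkn2a and Cdkn1a, overlapped between the NrasQ61K and WT libraries.

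**Figure D1:**
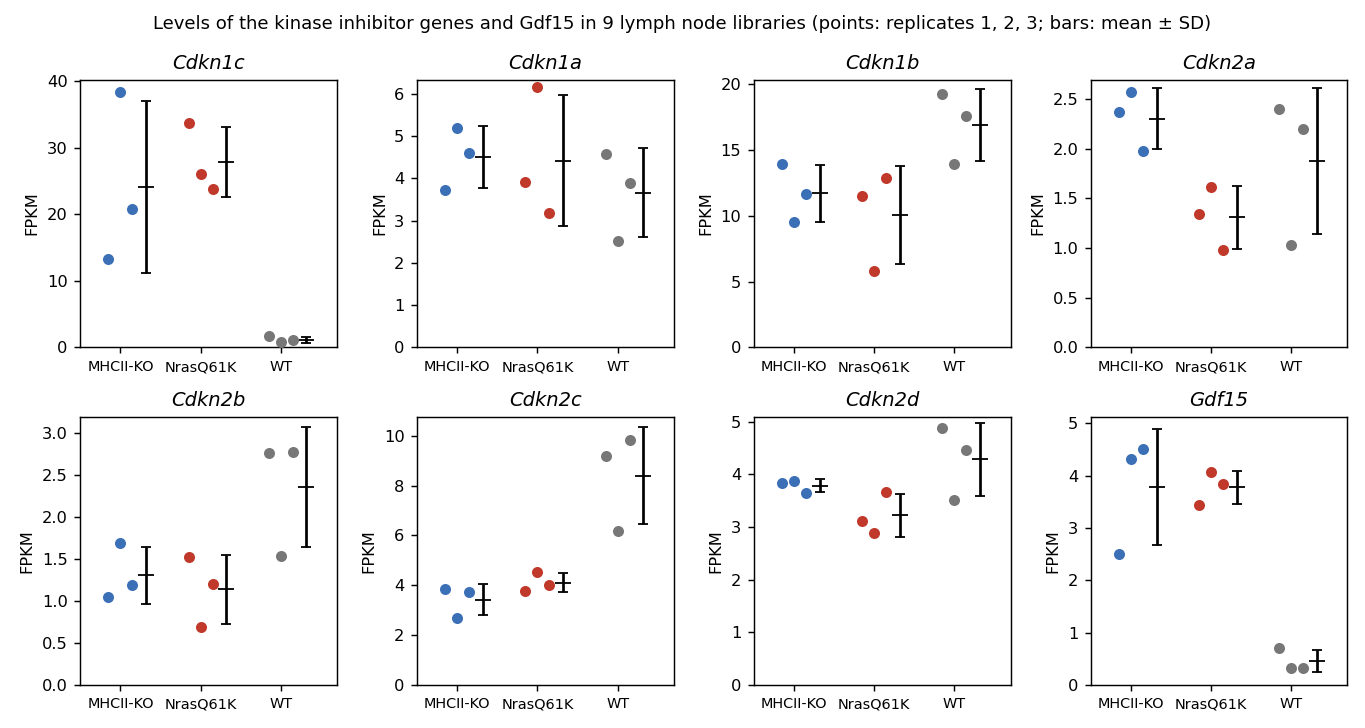
FPKM (vertical axes, linear, from 0) of the 8 genes in the 9 libraries, with MHCII-KO, Tyr-NrasQ61K (marked NrasQ61K) and WT from left to right, 1 point per library in the order of replicates 1, 2 and 3, and a bar for the mean ± SD. The 6 NrasQ61K libraries are above the whole WT group for Cdkn1c and Gdf15 and below it for Cdkn2c, and they overlap with WT for the other 5 genes.

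Cdkn1c (ENSMUSG00000037664) lies at chr7:143458339-143461050 of mm10, minus strand, in an imprinted domain where the maternal copy is the active one. It had 13.3, 38.4 and 20.8 FPKM in MHCII-KO libraries 1, 2 and 3. It had 33.8, 26.03 and 23.8 FPKM in Tyr-NrasQ61K libraries, against 1.66, 0.778 and 1.08 FPKM in WT libraries. The lowest NrasQ61K library, MHCII-KO 1, was thus well above the highest WT library, and the MHCII-KO group alone spanned the whole range of the 6. MHCII-KO nodes had 20.6 times the mean FPKM of WT nodes, a log2 fold change of 3.43 (SE 0.363, 95% interval 2.60 to 4.26, adjusted p = 0.0156, limma). The WT libraries used here also served in the contrast that picked out the gene. For Tyr-NrasQ61K against WT the ratio of means was 23.7 and the log2 fold change 3.74. The direction held in 18 of 18 alternatives, but the adjusted p from limma was 0.0844 without MHCII-KO 3, 0.0622 without WT 2, 0.0758 without WT 3 and 0.0509 when MHCII-KO and WT were fitted alone.

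Gdf15 (ENSMUSG00000038508) lies at chr8:70629393-70632456, minus strand. Its level was 2.50, 4.31 and 4.52 FPKM in MHCII-KO libraries. It was 3.44, 4.06 and 3.83 FPKM in Tyr-NrasQ61K libraries, against 0.698, 0.331 and 0.329 FPKM in WT libraries. The NrasQ61K libraries did not overlap with WT, and MHCII-KO 1 was the lowest of the 6 for this gene as for Cdkn1c. The ratio of mean FPKM was 8.35 both for MHCII-KO over WT and for Tyr-NrasQ61K over WT. On the log2(FPKM + 1) scale, which understates the change of low genes, the difference was 1.70 for MHCII-KO against WT (SE 0.214, 95% interval 1.21 to 2.19, adjusted p = 0.0310, limma) and 1.73 for Tyr-NrasQ61K against WT. Genes were tested when they reached 1 FPKM in at least 3 libraries, and Gdf15 did so in its 6 NrasQ61K libraries and in no WT library, so it could only be tested because it was higher there. With the filter dropped the adjusted p from limma was 0.0827.

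The Gdf15 call also depended on single libraries. With 1 library left out at a time, its adjusted p from limma was 0.118 without MHCII-KO 2, 0.176 without MHCII-KO 3, 0.0692 without Tyr-NrasQ61K 1, 0.0559 without Tyr-NrasQ61K 3, 0.0873 without WT 1, 0.0699 without WT 2 and 0.155 without WT 3. Its log2 fold change stayed between 1.58 and 1.91 in these fits. By the depth estimate above, the WT levels of Gdf15 correspond to about 8.74, 6.56 and 6.43 fragments per library and the 5 NrasQ61K levels with a depth to between 38.6 and 94.0. For Cdkn1c the same estimate gave 25.6, 18.99 and 26.05 fragments in WT and 269 to 722 in NrasQ61K libraries. Few fragments therefore stand behind the WT levels of Gdf15.

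In MHCII-KO against WT, Cdkn1c and Gdf15 were the 2 of the 8 genes that passed an adjusted p of 0.05 by limma, both higher and with every library above WT, where 7.97% of all 16587 genes tested had every library above WT, 0.0784% were called higher and 0.145% were called in either direction. Both had been picked in a contrast that shares its WT libraries, so no more is read from that count. In Tyr-NrasQ61K against WT the same threshold was passed by 0.235% of genes. All 6 NrasQ61K libraries lay above every WT library for 4.52% of all genes tested, and below every WT library for 8.44%. The median log2 fold change of all genes tested was -0.217 for MHCII-KO against WT and -0.120 for Tyr-NrasQ61K against WT, and scaling by median ratios moved the first to 0.02. The inhibitors below 0 are read against that shift.

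**Figure D2:**
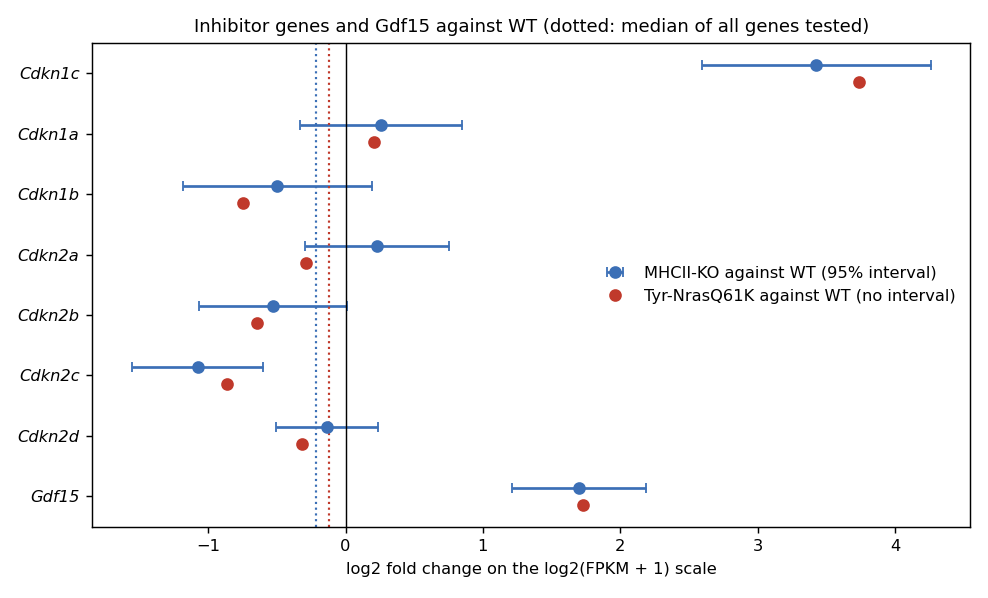
Log2 fold change on the log2(FPKM + 1) scale (horizontal axis) of each gene for MHCII-KO against WT, with the 95% interval from limma, and for Tyr-NrasQ61K against WT, as points only. Dotted lines mark the median of all genes tested, -0.217 and -0.120. Cdkn1c at 3.43 and 3.74 and Gdf15 at 1.70 and 1.73 stand to the right, and Cdkn2c at -1.08 and -0.86 is farthest to the left.

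Of the CIP/KIP genes, Cdkn1b and Cdkn1a were not called. Cdkn1b (ENSMUSG00000003031, chr6:134920401-134925513, plus strand), which encodes p27 and is high in resting lymphocytes, had 13.9, 9.54 and 11.6 FPKM in MHCII-KO libraries and 11.5, 5.79 and 12.8 FPKM in Tyr-NrasQ61K libraries. The WT libraries had 19.2, 13.9 and 17.5 FPKM. MHCII-KO 1 was just above the lowest WT library, and the other 5 NrasQ61K libraries were below all of WT. MHCII-KO against WT gave a log2 fold change of -0.50 (95% interval -1.19 to 0.19, adjusted p = 0.389, limma) and Tyr-NrasQ61K against WT -0.75. The interval reaches from a clear decrease to a small increase, so the test does not settle its direction.

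Cdkn1a (ENSMUSG00000023067, chr17:29090976-29100727, plus strand) encodes p21, the main p53-induced inhibitor. Its level was 3.72, 5.19 and 4.61 FPKM in MHCII-KO libraries, 3.92, 6.15 and 3.18 FPKM in Tyr-NrasQ61K libraries and 4.57, 2.51 and 3.89 FPKM in WT libraries. The 3 groups overlapped. Against WT its log2 fold change was 0.26 for MHCII-KO (95% interval -0.33 to 0.85, adjusted p = 0.580, limma) and 0.21 for Tyr-NrasQ61K. The interval leaves out a change of the size seen for Cdkn1c or Gdf15.

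Among the INK4 genes, Cdkn2c (ENSMUSG00000028551, chr4:109660876-109667189, minus strand), which encodes p18 and restrains lymphocyte proliferation in mice, showed the clearest separation. It had 3.84, 2.69 and 3.73 FPKM in MHCII-KO libraries and 3.76, 4.53 and 4.02 FPKM in Tyr-NrasQ61K libraries, against 9.20, 6.17 and 9.84 FPKM in WT libraries. MHCII-KO nodes had 40.7% and Tyr-NrasQ61K nodes 48.9% of the WT mean. The log2 fold change for MHCII-KO against WT was -1.08 (SE 0.209, 95% interval -1.55 to -0.60), but its adjusted p over all genes was 0.161 by limma, so it was not called. For MHCII-KO against WT, 23.4% of all genes tested had every library below WT, and Cdkn2c was the 1 of the 8 genes that did. Its adjusted p by limma was at or below 0.05 in 3 of 18 alternatives and reached 0.574 in the others. It was 0.0496 among protein-coding genes only and 0.00148 with library weights. That last setting called 5758 of all 16587 genes tested lower in this contrast.

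Cdkn2b and Cdkn2a are neighbours on chromosome 4. Cdkn2b (ENSMUSG00000073802, chr4:89306299-89311039, minus strand), which encodes p15 and is induced by TGF-beta, had 1.04, 1.69 and 1.18 FPKM in MHCII-KO libraries and 1.51, 0.690 and 1.196 FPKM in Tyr-NrasQ61K libraries. The WT libraries had 2.76, 1.53 and 2.77 FPKM. WT 2 was close to the highest NrasQ61K libraries, and WT 1 and WT 3 were above all 6. MHCII-KO against WT gave a log2 fold change of -0.53 (95% interval -1.06 to 0.01, adjusted p = 0.329, limma) and Tyr-NrasQ61K against WT -0.65.

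Cdkn2a (ENSMUSG00000044303, chr4:89274471-89294653, minus strand) encodes both p16 and, in another reading frame, the p53 activator ARF, and the level of the gene does not tell the transcripts apart. It had 2.37, 2.57 and 1.97 FPKM in MHCII-KO libraries, 1.34, 1.61 and 0.977 FPKM in Tyr-NrasQ61K libraries and 2.39, 1.03 and 2.20 FPKM in WT libraries. WT spanned most of the range of the other groups. The log2 fold change against WT was 0.23 for MHCII-KO (95% interval -0.29 to 0.76, adjusted p = 0.575, limma) and -0.29 for Tyr-NrasQ61K. Its sign for MHCII-KO turned without WT 2 and with library weights.

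Cdkn2d (ENSMUSG00000066860, chr9:21288459-21291421 in RefSeq GRCm38.p6) encodes p19INK4d. It had 3.84, 3.88 and 3.65 FPKM in MHCII-KO libraries, 3.11, 2.88 and 3.67 FPKM in Tyr-NrasQ61K libraries and 4.88, 3.52 and 4.46 FPKM in WT libraries. It varied the least of the 8 genes in the MHCII-KO group, with an SD of 0.127 FPKM around 3.79. The log2 fold change against WT was -0.13 for MHCII-KO (95% interval -0.50 to 0.24, adjusted p = 0.648, limma) and -0.32 for Tyr-NrasQ61K, and under median-ratio scaling and quantile normalization the first turned to 0.10 and 0.07.

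Between the groups labelled MHCII-KO and Tyr-NrasQ61K, 0 of the 8 genes were called by limma and 0 had an unadjusted p under 0.05, where 0.0482% of all genes tested were called and 1.52% had an unadjusted p under 0.05. The log2 fold change of Cdkn1c was -0.31 with a 95% interval of -1.14 to 0.52, and that of Gdf15 was -0.03 with an interval of -0.52 to 0.46. These intervals allow differences between the groups labelled MHCII-KO and Tyr-NrasQ61K, but none as large as those from WT. Cdkn2a was the 1 gene whose MHCII-KO libraries all lay above the Tyr-NrasQ61K libraries, as for 0.729% of all genes tested, with a log2 fold change of 0.52 (95% interval -0.003 to 1.05, adjusted p = 0.9999, limma). The other 5 had log2 fold changes of 0.05 for Cdkn1a, 0.25 for Cdkn1b, 0.12 for Cdkn2b, -0.22 for Cdkn2c and 0.19 for Cdkn2d.

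Cdkn1c held 31.6% to 60.0% of the summed FPKM of the 7 inhibitor genes in MHCII-KO libraries and 47.9% to 57.3% in Tyr-NrasQ61K libraries, against 2.59% to 3.72% in WT libraries. Shares within a library do not depend on its scaling. They hold the values that chose Cdkn1c and so get no test. Without Cdkn1c, the other 6 inhibitors summed to 25.6 to 28.7 FPKM in MHCII-KO, 21.7 to 25.9 in Tyr-NrasQ61K and 28.6 to 43.0 in WT libraries. Of that sum, Cdkn1b held 37.3% to 48.4% in MHCII-KO and 26.8% to 49.6% in Tyr-NrasQ61K libraries, against 43.1% to 48.5% in WT libraries, so its share overlapped between groups. Cdkn2c held 10.54% to 13.9% in MHCII-KO and 14.97% to 20.9% in Tyr-NrasQ61K libraries, against 21.4% to 24.2% in WT libraries, without overlap.

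The order of the inhibitors by level in FPKM differed as well. In WT nodes the order by mean FPKM was Cdkn1b, Cdkn2c, Cdkn2d, Cdkn1a, Cdkn2b, Cdkn2a and Cdkn1c. It was the same in each of the 3 WT libraries, although from Cdkn2d downward each gene overlapped with the next over the libraries. In Tyr-NrasQ61K nodes Cdkn1c came first, clear of Cdkn1b, followed by Cdkn1a, Cdkn2c, Cdkn2d, Cdkn2a and Cdkn2b. In MHCII-KO nodes Cdkn1c again came first by mean, but MHCII-KO 1 had slightly more Cdkn1b than Cdkn1c, so those genes overlapped. Cdkn1c was thus the lowest inhibitor in all 3 WT libraries and the highest in 5 of the 6 NrasQ61K libraries.

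**Figure D3:**
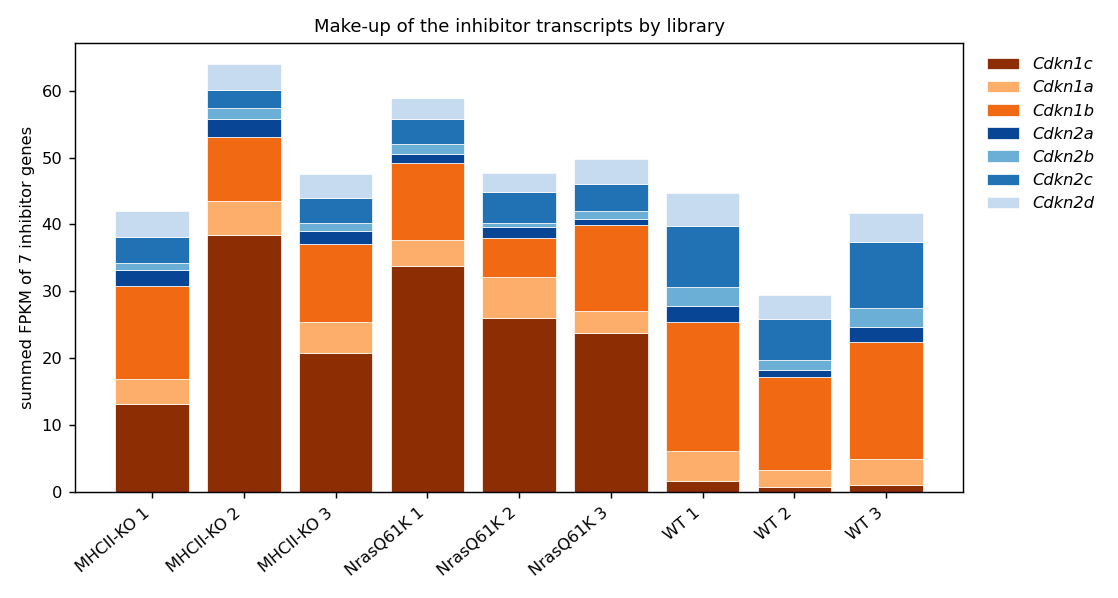
Summed FPKM of the 7 inhibitor genes (vertical axis, linear, from 0) in each library, stacked by gene, with MHCII-KO libraries first, then Tyr-NrasQ61K (marked NrasQ61K) and WT. Cdkn1c, at the bottom of each bar, makes up 31.6% to 60.0% of the MHCII-KO bars and 47.9% to 57.3% of the Tyr-NrasQ61K bars, against 2.59% to 3.72% of the WT bars.

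The kinases and cyclins on which the inhibitors act did not pass the test. Of 24 tested genes in a list of cyclins, kinases, pocket proteins and E2F factors, 0 were called by limma in any of the 3 contrasts. At an unadjusted p under 0.05, 1 was higher and 4 were lower in MHCII-KO against WT, and 1 was higher and 1 lower in Tyr-NrasQ61K against WT. Cdk4, the main INK4 target, had 40.2, 45.1 and 47.7 FPKM in MHCII-KO libraries, 31.7, 53.9 and 59.0 in Tyr-NrasQ61K libraries and 34.6, 28.4 and 44.2 in WT libraries. Rbl2, which encodes the pocket protein p130 of resting cells, had 11.5 to 16.7, 10.9 to 21.2 and 16.9 to 20.5 FPKM in the MHCII-KO, Tyr-NrasQ61K and WT groups. Cdk4 overlapped between all groups. For Rbl2, which was not called, every MHCII-KO library lay just below the lowest WT library, as for 23.4% of all genes tested. Rb1 had several values per library and was not used here.

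Genes of cycling cells were not called either. By limma 0 of 20 were called in any contrast, and at an unadjusted p under 0.05 none were higher and 5 lower in MHCII-KO against WT, and 1 was higher and 1 lower in Tyr-NrasQ61K against WT. Their median log2 fold change was -0.38 in MHCII-KO against WT, beside -0.217 over all genes tested, and -0.08 in Tyr-NrasQ61K against WT, beside -0.120. Pcna, the sliding clamp of DNA replication, had 24.3, 20.3 and 23.6 FPKM in MHCII-KO libraries, 27.2, 15.1 and 27.2 in Tyr-NrasQ61K libraries and 56.3, 27.0 and 54.1 in WT libraries. Tk1, a thymidine kinase of S phase, had 16.0 to 18.1, 14.4 to 18.6 and 14.03 to 14.8 FPKM in the MHCII-KO, Tyr-NrasQ61K and WT groups.

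Genes of the pathways known to induce Gdf15 and Cdkn1a were not called. Of 24 tested p53 targets and regulators, 0 were called by limma in any contrast, while 2 higher and 2 lower in MHCII-KO against WT and 4 higher and 1 lower in Tyr-NrasQ61K against WT had an unadjusted p under 0.05. The most abundant were Trp53inp1, at 23.2 to 62.8 FPKM in MHCII-KO, 19.3 to 41.7 in Tyr-NrasQ61K and 29.97 to 47.5 in WT libraries, and Btg2, at 23.0 to 30.7, 19.6 to 26.3 and 24.0 to 40.2 FPKM. Gadd45a, Mdm2, Zmat3 and Tnfrsf10b, named after their values were seen, lay above every WT library in all 6 NrasQ61K libraries. Mdm4 and Sesn1, named in the same way, lay below every WT library in all 6. Over all genes tested, 4.52% lay above in this way and 8.44% below. Of 18 tested genes of the integrated stress and unfolded protein responses, 0 were called by limma. At an unadjusted p under 0.05, 1 was higher and 1 lower in MHCII-KO against WT, and 1 higher in Tyr-NrasQ61K against WT. Hspa5, a chaperone of the endoplasmic reticulum, had 72.2 to 91.2 FPKM in MHCII-KO, 87.6 to 94.4 in Tyr-NrasQ61K and 67.3 to 147 in WT libraries. Xbp1, a transcription factor of the unfolded protein response, had 58.0 to 164, 46.3 to 83.6 and 50.1 to 106 FPKM.

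The receptor of GDF15 was almost undetected in the nodes. Gfral, which encodes it and is known from the hindbrain, was listed at 0 in 8 libraries and at 0.071 FPKM in MHCII-KO 2, and its co-receptor Ret stayed between 0.220 and 0.749 FPKM. Of 6 tested genes among the receptors and other TGF-beta family ligands, 0 were called by limma, with 2 higher at an unadjusted p under 0.05 in each NrasQ61K group against WT. Tgfb1, the most abundant ligand, had 26.2, 21.03 and 29.6 FPKM in MHCII-KO libraries, 24.2, 17.3 and 33.2 in Tyr-NrasQ61K libraries and 13.3, 16.4 and 11.4 in WT libraries. Gdf3 had 2.42, 2.15 and 2.99 FPKM in MHCII-KO libraries, 2.89, 1.84 and 1.93 in Tyr-NrasQ61K libraries and 1.59, 0.712 and 1.02 in WT libraries. For Tgfb1 and Gdf3 the 6 NrasQ61K libraries lay above every WT library, as for 4.52% of all genes tested. The log2 fold changes of the other 4 tested genes were below 0 in each NrasQ61K group against WT.

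No other gene of the imprinted domain around Cdkn1c was called. Of 16 listed genes of the domain 6 were tested, and by limma 0 were called in any contrast and 0 had an unadjusted p under 0.05. Cd81, a tetraspanin on B cells, had 56.2, 70.7 and 89.2 FPKM in MHCII-KO libraries, 57.6, 75.9 and 74.1 in Tyr-NrasQ61K libraries and 64.3, 40.5 and 57.1 in WT libraries. Tspan32, another tetraspanin of blood cells, had 20.9 to 27.9, 19.8 to 36.0 and 24.1 to 25.4 FPKM. The growth factor gene Igf2 and the noncoding H19, at the far side of the domain and named here after their values were seen, did not reach 1 FPKM in 3 libraries. Within 500 kb of Cdkn1c, 16 of 25 annotated entries were tested and 0 were called by limma, with 3 higher in MHCII-KO against WT and 2 higher in Tyr-NrasQ61K against WT at an unadjusted p under 0.05.

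Imprinted genes elsewhere and the neighbours of Gdf15 were not called either. Of 8 tested imprinted genes outside the domain 0 were called by limma, with 2 lower in MHCII-KO against WT and 3 lower in Tyr-NrasQ61K against WT at an unadjusted p under 0.05. The most abundant, Gnas, which encodes a G protein subunit, had 13.2 to 18.7 FPKM in MHCII-KO, 12.6 to 73.2 in Tyr-NrasQ61K and 11.5 to 16.1 in WT libraries, with Tyr-NrasQ61K 3 far above the rest, and Igf2r had 10.1 to 14.01, 9.37 to 26.9 and 7.96 to 11.7 FPKM. Within 500 kb of Gdf15, 36 of 47 annotated entries were tested and 0 were called by limma. At an unadjusted p under 0.05, 2 of them were higher and 2 lower in MHCII-KO against WT, and 2 were higher in Tyr-NrasQ61K against WT.

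Promoter sequences were taken from RefSeq (GRCm38.p6) for the 7 of 8 genes that had one, 11 windows of 300 bases in all, each from 250 bases before to 50 after a start. CACGTG, the E-box read by MYC and by the MiT factors such as MITF and TFE3, was in 7.15% of all 32851 promoters, and in 1 window each of Gdf15 and Cdkn2c, which differed in opposite directions between NrasQ61K and WT libraries. These windows are printed 5′ to 3′ on the gene's strand to show the shared letters in capitals, for Gdf15 at chr8:70632046-70632345 and for Cdkn2c at chr4:109665323-109665622, both on the minus strand.
Gdf15: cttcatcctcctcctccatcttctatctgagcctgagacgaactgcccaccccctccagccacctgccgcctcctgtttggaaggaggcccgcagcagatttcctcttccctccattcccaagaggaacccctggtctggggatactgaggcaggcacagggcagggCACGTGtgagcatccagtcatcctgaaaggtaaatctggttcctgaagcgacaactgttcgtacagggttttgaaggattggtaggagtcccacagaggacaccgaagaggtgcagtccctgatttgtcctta
Cdkn2c: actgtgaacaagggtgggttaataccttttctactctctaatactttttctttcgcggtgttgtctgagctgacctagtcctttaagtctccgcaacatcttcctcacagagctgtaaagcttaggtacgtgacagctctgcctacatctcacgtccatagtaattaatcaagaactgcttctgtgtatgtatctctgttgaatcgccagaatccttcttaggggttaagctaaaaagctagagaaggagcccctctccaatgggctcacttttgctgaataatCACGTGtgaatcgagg
TGACGTCA, the cyclic AMP response element, was in 1.79% of all promoters and in the window of Cdkn2b. The AP-1 motif TGANTCA, in 7.81% of promoters, and the ATF4 composite motif TGANGCAA, in 3.69%, were in none of the 11 windows. Each motif was searched on both strands, overlaps between motifs included, and a match is a description of letters only.

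The genes whose pattern over the 9 libraries was most like that of Cdkn1c, by Pearson's r of log2(FPKM + 1) over 11901 protein-coding genes, were Ahnak2 (r = 0.987), Mfsd12 (0.985), Trem2 (0.982), Cdk18 (0.982) and Gdf15 (0.981). For Gdf15 they were Ptpn23 (0.989), 4930404N11Rik (0.988), Ahnak2 (0.982), Mfsd12 (0.982) and Cdkn1c (0.981). The points fall into separate clusters, the 3 WT libraries and the 6 NrasQ61K libraries, and the gap between them sets these values. Within the 6 NrasQ61K libraries r between Cdkn1c and Gdf15 was 0.62. Ahnak2, which encodes a large scaffold protein, had 10.6, 26.9 and 16.6 FPKM in MHCII-KO libraries, 17.0, 26.3 and 15.9 in Tyr-NrasQ61K libraries and 2.07, 1.37 and 1.86 in WT libraries. Mfsd12, a cysteine importer of lysosomes and melanosomes, had 10.2, 16.2 and 13.6 FPKM in MHCII-KO libraries, 13.3, 14.4 and 13.3 in Tyr-NrasQ61K libraries and 3.905, 2.22 and 3.86 in WT libraries. Cdk18, itself a cyclin-dependent kinase, had 1.89, 2.76 and 2.71 FPKM in MHCII-KO libraries, 3.23, 2.04 and 2.59 in Tyr-NrasQ61K libraries and 0.209, 0.262 and 0.209 in WT libraries.

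The number of cells of a type and the RNA per cell cannot be told apart in whole nodes. In contrasts with WT, 2 macrophage markers and 1 melanocyte marker were called, all of them higher. Of 15 tested macrophage markers, 2 were called, both higher, in each contrast with WT, while log2 fold changes of 7 lay below 0 in MHCII-KO and of 8 in Tyr-NrasQ61K against WT. The list was drawn up with earlier results of these data known, so no more is read from these calls. Gpnmb, a glycoprotein of lipid-laden macrophages and of melanocytes, had 109, 148 and 161 FPKM in MHCII-KO libraries and 204, 96.4 and 151 in Tyr-NrasQ61K libraries, against 4.23, 1.57 and 3.56 in WT libraries. Its log2 fold change was 5.14 (adjusted p = 0.00177, limma) for MHCII-KO and 5.20 (adjusted p = 0.00122, limma) for Tyr-NrasQ61K against WT. Trem2, a lipid receptor of macrophages, had 17.9, 24.9 and 21.2 FPKM in MHCII-KO libraries and 26.6, 16.9 and 22.3 in Tyr-NrasQ61K libraries, against 2.08, 0.382 and 1.15 in WT libraries. Its log2 fold change was 3.41 (adjusted p = 0.00747, limma) for MHCII-KO and 3.43 (adjusted p = 0.00491, limma) for Tyr-NrasQ61K against WT, and without WT 3 the adjusted p for MHCII-KO was 0.0502.

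The remaining macrophage markers were not called, and their sums overlapped between groups. At an unadjusted p under 0.05, 3 of them were lower in MHCII-KO and 4 in Tyr-NrasQ61K against WT. Marco, a scavenger receptor of sinus macrophages, had 23.6, 13.9 and 40.03 FPKM in MHCII-KO libraries and 22.9, 19.6 and 24.2 in Tyr-NrasQ61K libraries, against 130, 51.8 and 142 in WT libraries (adjusted p = 0.226 and 0.163, limma). Mrc1, the mannose receptor, was at 4.26 to 9.01 FPKM in MHCII-KO and 2.39 to 8.94 in Tyr-NrasQ61K, against 10.4 to 32.6 in WT libraries. Marco and Mrc1, named after their values were seen, lay below every WT library in all 6 NrasQ61K libraries, as for 8.44% of all genes tested. Gpnmb and Trem2 lay above every WT library in all 6, as for 4.52%. Without Gpnmb and Trem2, the summed level of the macrophage list was 1430 to 2393 FPKM in MHCII-KO, 1154 to 2482 in Tyr-NrasQ61K and 1282 to 3131 in WT libraries. Its most abundant genes, Lyz2 and Apoe, were at 598 to 1120 and 549 to 846 FPKM in MHCII-KO, 468 to 1269 and 433 to 838 in Tyr-NrasQ61K and 502 to 1076 and 529 to 1440 in WT libraries. The part of these cells in the levels of Cdkn1c and Gdf15 was not tested. Within the 6 NrasQ61K libraries r of Cdkn1c was 0.49 with Gpnmb and 0.69 with Trem2, and r of Gdf15 was 0.25 and 0.28, over libraries of unequal depth.

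Melanocyte markers were low in all libraries, and Dct was called in 1 contrast. Dct, a pigment enzyme, had 0.847, 2.10 and 3.25 FPKM in MHCII-KO libraries and 5.81, 4.16 and 2.77 in Tyr-NrasQ61K libraries, against 0.0508, 0 and 0.0319 in WT libraries. It was called in Tyr-NrasQ61K against WT (log2 fold change 2.31, adjusted p = 0.0431, limma), a call kept in 7 of 18 alternatives, and not in MHCII-KO against WT (1.496, adjusted p = 0.201, limma). The call was lost without MHCII-KO 2 and without any 1 of the Tyr-NrasQ61K and WT libraries, at an adjusted p of 0.0653 to 0.163 by limma. It was the 1 called of 7 tested melanocyte markers, of which 3 were higher and 1 lower in MHCII-KO against WT and 3 higher in Tyr-NrasQ61K against WT at an unadjusted p under 0.05. The 3 higher ones, Dct, Pmel and Mlana, reached 1 FPKM in 5, 4 and 4 of the 6 NrasQ61K libraries and in 0 WT libraries, so they passed the filter only through the groups where they were higher. This list, too, was drawn up with earlier results of these data known. The summed level of 14 melanocyte markers was 14.1 to 21.1 FPKM in MHCII-KO, 17.99 to 27.9 in Tyr-NrasQ61K and 12.5 to 17.4 in WT libraries. Kit, which mast cells also express, was the highest in WT, while Tyrp1 was at 0 in every WT library. Of the 14 markers, 6 had every MHCII-KO library above WT and 1 had every MHCII-KO library below. Over all genes tested, 7.97% lay above in this way and 23.4% below. Dct was below Cdkn1c in FPKM in all 9 libraries, and the part of melanocytes in the level of Cdkn1c was not tested.

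**Figure D4:**
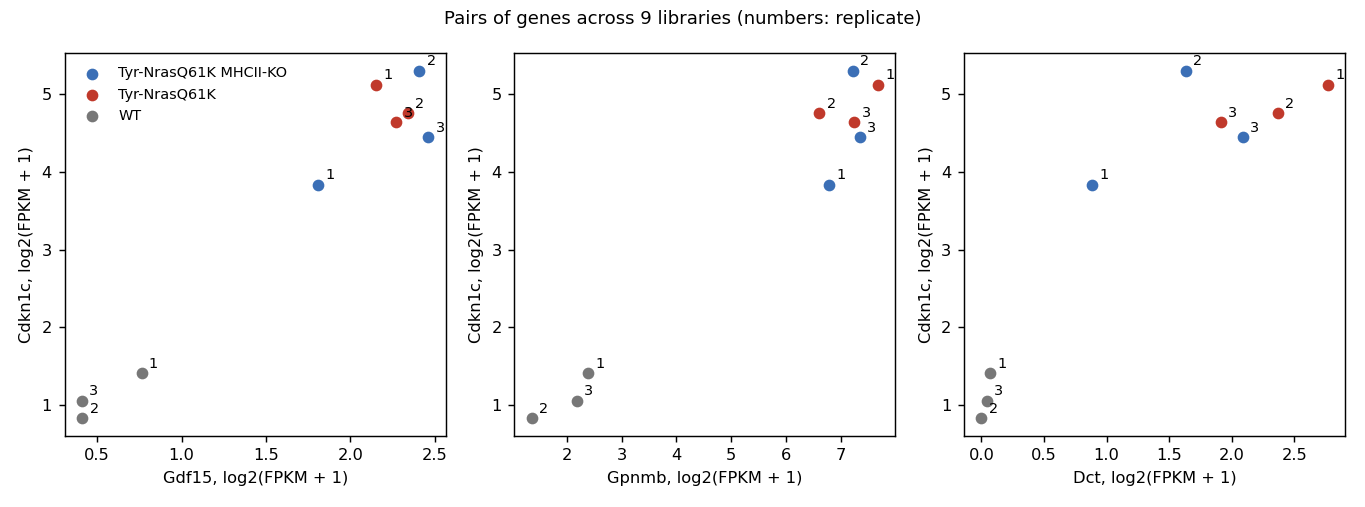
Cdkn1c (vertical axes) against Gdf15, Gpnmb and Dct (horizontal axes), all as log2(FPKM + 1), 1 point per library coloured by group and numbered by replicate. In each panel the 3 WT libraries lie apart at the lower left from the 6 NrasQ61K libraries, within which r with Cdkn1c was 0.62 for Gdf15, 0.49 for Gpnmb and 0.63 for Dct.

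Summed markers of fat lay below WT in both NrasQ61K groups without overlap, while those of vessels overlapped between Tyr-NrasQ61K and WT. Adipocyte markers summed to 66.3 to 177 FPKM in MHCII-KO and 43.8 to 192 in Tyr-NrasQ61K libraries, against 282 to 515 in WT libraries, and endothelial markers to 141 to 379 and 112 to 650, against 604 to 1478. By limma 0 of 9 and 0 of 11 tested were called in any contrast, with 7 and 2 lower in MHCII-KO against WT and 8 and 3 lower in Tyr-NrasQ61K against WT at an unadjusted p under 0.05. Fabp4, a fatty acid carrier, had 36.0 to 99.0 FPKM in MHCII-KO, 19.7 to 130 in Tyr-NrasQ61K and 165 to 278 in WT libraries. Glycam1 was the highest endothelial marker in every library and made up much of the endothelial sum. It had 69.3 to 272 FPKM in MHCII-KO, 50.7 to 524 in Tyr-NrasQ61K and 502 to 1282 in WT libraries. The endothelial sum without Glycam1 was not compared. Summed levels of 12 T cell markers were 178 to 309, 192 to 447 and 246 to 378 FPKM, and of 9 B cell markers 1062 to 2584, 704 to 2138 and 1328 to 2691 FPKM, in the MHCII-KO, Tyr-NrasQ61K and WT groups. By limma 0 of 12 and 0 of 9 were called in any contrast. At an unadjusted p under 0.05, 3 T cell markers and 1 B cell marker were lower in MHCII-KO against WT, and 1 T cell marker was higher and 4 were lower in Tyr-NrasQ61K against WT. The part of these cells in the levels of Cdkn2c and Cdkn1b was not tested.

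Markers of the remaining cell types showed no call by limma in any contrast. For 13 fibroblast markers 2 were higher and 3 lower in each NrasQ61K group against WT at an unadjusted p under 0.05, and for 7 markers of smooth muscle and pericytes none were higher and 4 lower in each. For 2 tested epithelial markers there were 0, and for 4 of Schwann cells there was 1 higher, in Tyr-NrasQ61K against WT. Summed fibroblast markers came to 308 to 391 FPKM in MHCII-KO, 296 to 420 in Tyr-NrasQ61K and 298 to 675 in WT libraries. Those of smooth muscle and pericytes came to 41.3 to 51.0, 31.5 to 69.5 and 55.4 to 113 FPKM. In MHCII-KO against Tyr-NrasQ61K, over all the lists named here, an unadjusted p under 0.05 was found for 1 lower gene among the cyclins and kinases and 2 lower melanocyte markers.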

How the data were processed

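The authors ran the 9 libraries together on 1 Genome Analyzer IIx flow cell and deposited 1 table of FPKM per gene and library. Per the labels TopHat, Cufflinks and Cuffdiff were used with mm10. Versions, annotation and strand setting: not given in the sources used here, so overlapping genes may share fragments. Of 37819 entries, 18 with several values per library were left out. Coordinates came from GENCODE M21, and for Cdkn2d from RefSeq.

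The 16587 genes that reached 1 FPKM in 3 or more libraries were fitted as log2(FPKM + 1) in R 4.3.3 by limma 3.58.1, with group means and a variance trend. Those with a Benjamini-Hochberg adjusted p up to 0.05 were called. The fit was tested on simulated data. Python 3.11.15, numpy 2.4.6, pandas 2.3.3 and matplotlib 3.10.9 gave tables and plots. Alternatives were another offset, no filter, 2 normalizations, library weights, a replicate block, protein-coding genes only, 2 groups only, and libraries left out.

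The members, lists and tests were chosen with earlier results of these data known. Besides the members, up to 4 called and the 2 most abundant genes of a list, the 5 genes most like Cdkn1c or Gdf15 and neighbours within 500 kb could be named. Depth estimates cover counting only.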

Additional observations from a re-analysis of the deposited data

How the results depend on the processing

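Cdkn1c and Gdf15 stayed higher in MHCII-KO than in WT nodes in 18 of 18 alternatives each. The adjusted p from limma stayed at or below 0.05 in 14 for Cdkn1c and in 7 for Gdf15. Both genes were picked in a contrast that shares its WT libraries, so these counts add no separate support. Gdf15 also passed the filter only through its NrasQ61K libraries. With the 2 groups alone Cdkn1c kept a log2 fold change of 3.43 and Gdf15 of 1.70 but neither passed, and Gdf15 did not pass at 1.70 with no filter, at 1.79 with quantile normalization and at 1.61 without Tyr-NrasQ61K 2 and MHCII-KO 2, the 2 libraries that stood apart on the first component (adjusted p 0.0588 to 0.166, limma). With 1 library left out Cdkn1c ranged over 3.04 to 3.77 and Gdf15 over 1.58 to 1.91. For MHCII-KO against Tyr-NrasQ61K, signs near 0 turned: Gdf15 to 0.19 with library weights, 0.048 with median-ratio scaling and 0.092 with quantile normalization, and Cdkn2b to -0.16 with library weights and to -0.15 without the 2 libraries that stood apart. With 1 library left out the range was -0.15 to 0.18 for Gdf15, -0.70 to 0.036 for Cdkn1c, -0.12 to 0.27 for Cdkn1a, -0.066 to 0.45 for Cdkn1b and -0.038 to 0.25 for Cdkn2b. Against WT, MHCII-KO turned to -0.060 for Cdkn2a with library weights (-0.0012 to 0.37 with 1 library left out), and to 0.10 and 0.074 for Cdkn2d with median-ratio scaling and quantile normalization. Cdkn2d has no entry among the protein-coding genes matched, so that fit lacks it.

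Counts of called genes moved far more. From 24 in MHCII-KO against WT they went to 7407 with library weights, 37 with median-ratio scaling, 108 with protein-coding genes only and 777 with the replicate block. From 39 in Tyr-NrasQ61K against WT they went to 5076, 66, 105 and 894 under the same settings, and to 24 with an offset of 0.1. From 8 in MHCII-KO against Tyr-NrasQ61K they went to 24 with library weights, 0 with protein-coding genes only and 14 without the 2 libraries that stood apart. With 1 library left out the counts ranged over 9 to 29, 11 to 36 and 7 to 11. Library weights gave 5.22 to MHCII-KO 3 and 0.197 to Tyr-NrasQ61K 2. With them Cdkn1b, Cdkn2b, Cdkn2c and Cdkn2d were called lower in MHCII-KO against WT, as were 15 of the 20 genes of cycling cells. Of all 16587 genes tested, 5758 were called lower there under the same weights, so no more is read from these counts. Correlations of same-numbered libraries ran over -0.04 to 0.33, highest for MHCII-KO 2 with Tyr-NrasQ61K 2, and were not all over 0.1, so the numbers were not taken as pairs, and the replicate block added 1 call among the 8 genes, Cdkn2c (adjusted p = 0.0458, limma). The cause of these differences was not tested.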
